A study of Mus musculus with 18 samples.

Results

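The 10 genes described here encode inhibitors that cells make in response to growth factor and MAP kinase signalling and that then dampen the same signals. They are the dual-specificity phosphatase genes Dusp1, Dusp4, Dusp5, Dusp6 and Dusp10, the Sprouty genes Spry1, Spry2 and Spry4, the related gene Spred1, and Errfi1. Members were chosen by name for this role, with earlier results of these data known. They were found by exact symbol in 3 deposited tables, which together hold 10133 symbols. Of the 10 members, 9 stood in at least 1 table and 7 in all 3. Spry1 stood in none, so its level is not known here.

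The tables compare 2 immortalized mouse embryonic fibroblast lines, eIF2α S51A (eIF2aS51A in the labels) and WT (Wild-Type). In S51A the regulatory serine of the translation initiation factor eIF2α is an alanine, so that stress kinases cannot phosphorylate it there. Cells of both lines had no peroxide (0 min) or had 500 µM hydrogen peroxide for 15 or 120 min, which gives 6 groups with 3 labelled samples each, although the series design text speaks of duplicates. No label says that samples came from separate cultures, and with a single line per genotype an effect of the mutation and other differences between the lines cannot be told apart. In these bulk samples, fewer cells expressing a gene and less RNA per cell cannot be told apart either.

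Each table holds 1 value per line and gene, the authors' group FPKM (fragments scaled by transcript length and library depth). Only genes with a q-value of at most 0.05 for the difference between the lines are listed, so each listed gene counts as called by the authors. Values for single samples, their spread and the sequencing depth were not used here, so no SD is given and the authors' q-value is the only measure of error. A gene that is not listed was not called, which says nothing about equality. Of 10 fibroblast marker genes 9 were listed at some time, among them Col1a2 at 1098 FPKM in S51A and 155 FPKM in WT at 0 min, while Dcn had 8.88 FPKM in S51A and 54.2 FPKM in WT. None of 5 epithelial and 4 endothelial marker genes was listed, and the 3 listed of 5 leukocyte marker genes reached at most 2.11 FPKM in any group.

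Growth factors bind receptor tyrosine kinases, which switch on Ras and then the kinases RAF, MEK and ERK. The related p38 and JNK kinases answer mainly to stress, including oxidants. Dual-specificity phosphatases remove the activating phosphates from these kinases, Sprouty and Spred proteins act upstream at Ras and RAF, and ERRFI1 (also called MIG6) binds and inhibits EGF receptors. Most of these genes are themselves induced by the pathway they inhibit, so in fibroblasts their transcripts are often read as a sign of recent signalling.

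Before peroxide, most feedback genes were lower in S51A cells. The authors' deposited table for 0 min called 7 of the 8 listed members lower and 1 higher, against 50.4% of all 7555 listed genes lower and 49.6% higher. At least 2-fold lower were 6 members, against 15% of listed genes, and at least 2-fold higher was 1 member, against 22.1%. The median log2 ratio of S51A over WT was -1.69 for the 8 listed members and -0.27 for all listed genes. All 8 carried the smallest q-value in that table, 0.000118, which 4905 genes shared. In S51A the members ranged from Spry4 at 0.0587 FPKM to Errfi1 at 26.4 FPKM, and in WT from Dusp10 at 1.55 FPKM to Errfi1 at 85.0 FPKM.

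**Figure D1:**
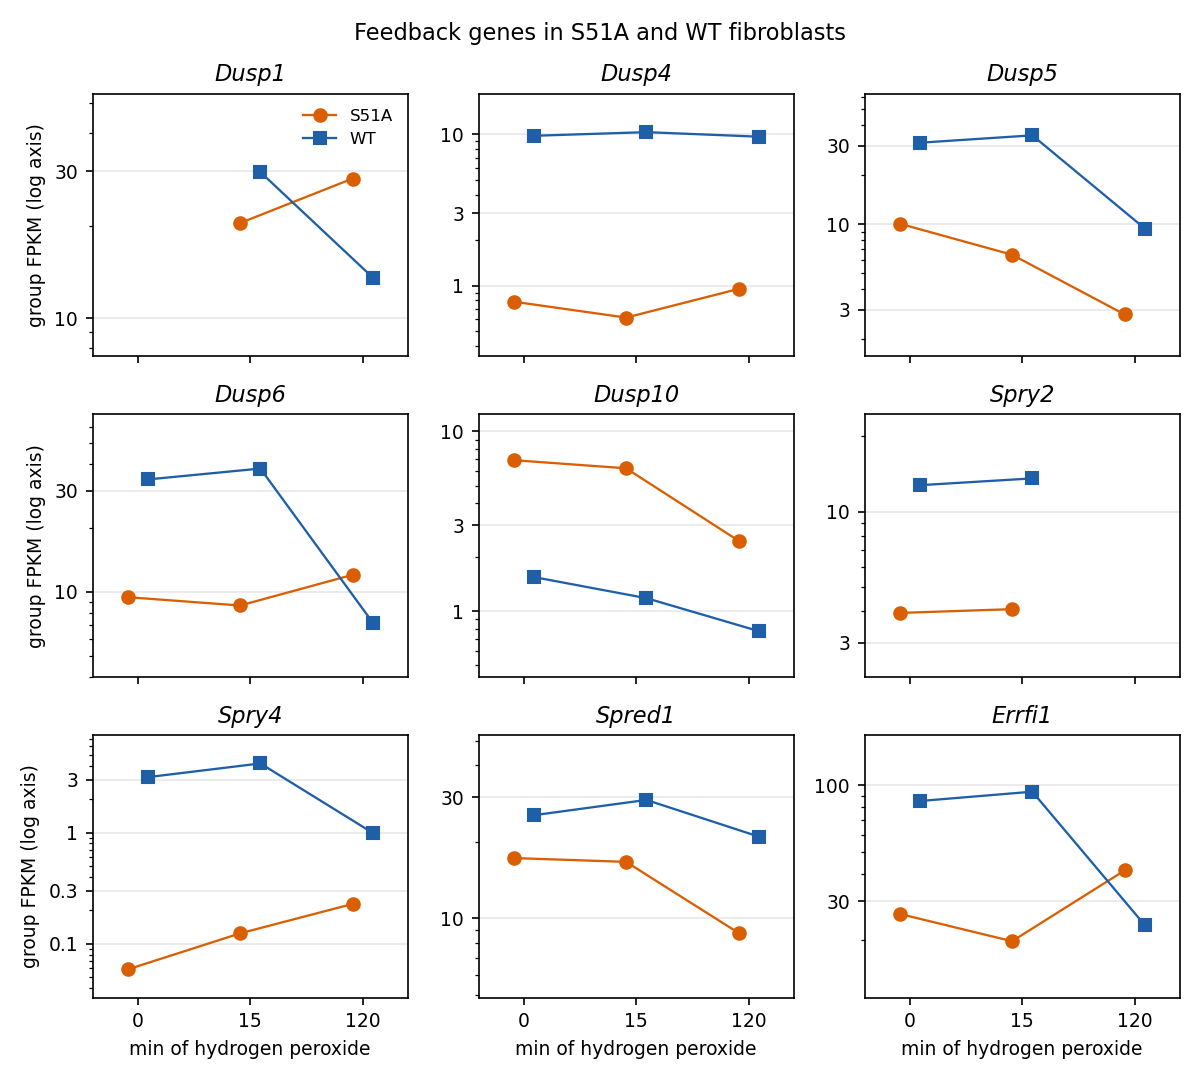
Group FPKM of the 9 listed feedback genes on a log axis against minutes of hydrogen peroxide, with S51A as circles and WT as squares; each point is the authors' single group value, with no error bar available. Dusp6 and Errfi1 lie lower in S51A at 0 and 15 min and higher in S51A at 120 min, while Dusp4, Dusp5, Spry4 and Spred1 lie lower in S51A at all 3 times and Dusp10 higher.

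Dusp6 encodes the cytoplasmic phosphatase that acts mainly on ERK (chromosome 10, 99263231 to 99267489, mm10 coordinates of the gene in the tables). In S51A cells it had 9.45, 8.63 and 12.0 FPKM at 0, 15 and 120 min, and in WT cells 33.8, 38.1 and 7.16 FPKM. The S51A values stayed within a narrow range, whereas the WT value at 120 min was far below both earlier WT values. Dusp6 was therefore 3.58-fold lower in S51A at 0 min and 4.41-fold lower at 15 min, but 1.68-fold higher at 120 min, with q-values of 0.000118, 0.000102 and 0.00087 in the authors' deposited tables.

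Errfi1, which encodes the inhibitor of EGF receptors (chromosome 4, 150855091 to 150868880), had the same form. It had 26.4, 19.8 and 41.4 FPKM at 0, 15 and 120 min in S51A cells, and 85.0, 93.7 and 23.4 FPKM in WT cells. The S51A value was highest at 120 min, where the WT value was lowest. The difference was 3.20-fold lower in S51A at 0 min, 4.72-fold lower at 15 min and 1.77-fold higher at 120 min, with q-values of 0.000118, 0.000102 and 0.000198 in the authors' deposited tables. Errfi1 had the highest level of the listed members in S51A at 0 and 120 min and in WT at all 3 times.

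Dusp1 encodes a nuclear phosphatase of p38, JNK and ERK and is a classic early gene of the oxidant response (chromosome 17, 26505591 to 26508472). It was not listed at 0 min. At 15 and 120 min it had 20.4 and 28.4 FPKM in S51A cells, and 29.9 and 13.5 FPKM in WT cells. Here too the lines changed places, with Dusp1 1.46-fold lower in S51A at 15 min (q = 0.000102 in the authors' deposited table) and 2.10-fold higher at 120 min (q = 0.000198 there).

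Dusp4 and Dusp5 encode further nuclear phosphatases, and both were lower in S51A at all 3 times. Dusp4, whose product acts on ERK and on JNK (chromosome 8, 34807610 to 34819894), had 0.785, 0.616 and 0.953 FPKM at 0, 15 and 120 min in S51A cells, and 9.78, 10.3 and 9.65 FPKM in WT cells. Every S51A value lay below 1 FPKM and the WT values lay close together, and Dusp4 was lower in S51A by 12.6-fold, 16.8-fold and 10.1-fold at the 3 times. With 1 FPKM added to both lines its log2 ratios were -2.59, -2.81 and -2.45, in place of -3.65, -4.07 and -3.34. Dusp5, whose product is specific for ERK (chromosome 19, 53529318 to 53541322), had 10.1, 6.50 and 2.81 FPKM in S51A cells, and 31.3, 34.8 and 9.38 FPKM in WT cells. In both lines Dusp5 was lowest at 120 min, and it was 3.10-fold, 5.31-fold and 3.32-fold lower in S51A.

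Dusp10, which encodes a phosphatase of p38 and JNK rather than ERK (chromosome 1, 184034461 to 184075636), was the one member higher in S51A at all 3 times. It had 6.92, 6.23 and 2.46 FPKM at 0, 15 and 120 min in S51A cells, and 1.55, 1.18 and 0.774 FPKM in WT cells. Its level was lowest at 120 min in both lines. The log2 ratios in the authors' deposited tables were 2.16, 2.4 and 1.67, with q-values of 0.000118, 0.000102 and 0.00118. With 1 FPKM added to both lines these ratios were 1.64, 1.73 and 0.96.

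Spry4, a Sprouty gene whose product restrains Ras activation (chromosome 18, 38586265 to 38601268), had the lowest level of the members in S51A. It had 0.0587, 0.124 and 0.228 FPKM at 0, 15 and 120 min in S51A cells, and 3.16, 4.20 and 0.993 FPKM in WT cells. At 0 min the log2 ratio of -5.75 was the 11th largest among 3793 genes that were lower in S51A and above 0 in both lines. The difference was 53.8-fold at 0 min, 34.1-fold at 15 min and 4.35-fold at 120 min, where q was 0.00102 in the authors' deposited table. At such low S51A values the precision of these folds is unknown, and with 1 FPKM added to both lines the log2 ratios were -1.97, -2.21 and -0.70, in place of -5.75, -5.09 and -2.12.

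Spry2, another Sprouty gene (chromosome 14, 105891947 to 105896819), had 3.94 and 4.08 FPKM at 0 and 15 min in S51A cells, and 12.7 and 13.5 FPKM in WT cells. It was 3.23-fold and 3.32-fold lower in S51A and was not listed at 120 min. Spred1, which encodes a Sprouty-related protein that brings the Ras inhibitor neurofibromin to the membrane (chromosome 2, 117121071 to 117182277), had 17.3, 16.7 and 8.75 FPKM at 0, 15 and 120 min in S51A cells. It had 25.5, 29.2 and 21 FPKM in WT cells. Its difference was the smallest of the listed members at 0 min, 1.46-fold lower in S51A, and was 1.75-fold at 15 min and 2.38-fold at 120 min.

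After 15 min of peroxide each member listed at 0 min kept its direction. The authors' deposited table called 8 of the 9 listed members lower in S51A and 1 higher. Among all 8308 listed genes 50.1% were lower and 49.9% higher. All 9 members carried the smallest q-value at that time, 0.000102, which 5803 of the 8308 listed genes shared. At least 2-fold lower were 6 members, against 12.3% of listed genes, and at least 2-fold higher was 1, against 20.2%. The median log2 ratio was -2.14 for the members and -0.20 for all listed genes.

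After 120 min the 8 listed members were divided, 4 lower and 4 higher in S51A, against 49.1% and 50.9% of all 6119 listed genes. Higher were Dusp1, Dusp6, Dusp10 and Errfi1, and lower were Dusp4, Dusp5, Spry4 and Spred1. With a minimum fold of 2, Dusp1 and Dusp10 counted as higher, against 26.5% of listed genes, and all 4 lower members still counted, against 20.9%. The smallest q-value, 0.000198, was carried by 5 members, and 3041 of all 6119 listed genes shared it. The median log2 ratio was -0.25 for the members and 0.41 for all listed genes.

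The sign of the difference changed with time in 3 members. Of the 7 members listed at 0 and 120 min, 2 were lower in S51A at 0 min and higher at 120 min, Dusp6 and Errfi1, against 10.4% of the 4330 genes listed at both. Of the 8 members listed at 15 and 120 min, 3 did so, with Dusp1 added, against 3.6% of 4970 genes. Lower in S51A at all 3 times were 4 of the 7 members listed throughout, against 46.2% of 3828 genes. Between 0 and 120 min the log2 ratio shifted by 2.59 for Dusp6, 2.50 for Errfi1 and 3.63 for Spry4, and a shift at least as high was found in 0.374%, 0.538% and 0.0702% of 4274 genes above 0 in both lines. With 1 FPKM added to each value, the shift was 2.41 for Dusp6 and 2.45 for Errfi1 but 1.28 for Spry4, which 7.09% of the genes reached. The shift of the deposited ratio was 0.31 for Dusp4, -0.10 for Dusp5, -0.49 for Dusp10 and -0.70 for Spred1. Since the tables give no spread, the difference between times was not tested.

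**Figure D2:**
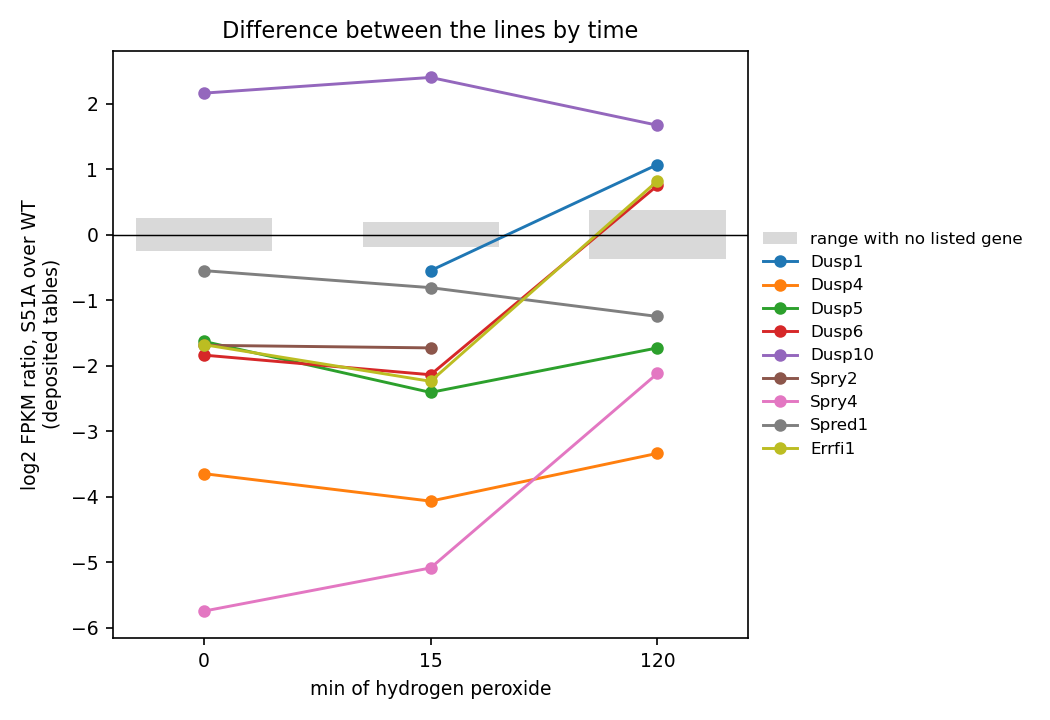
Deposited log2 FPKM ratio of S51A over WT for the 9 listed members against minutes of hydrogen peroxide; lines join the values of 1 gene and grey boxes mark the range around 0 in which a table lists no gene. Dusp6 and Errfi1 cross from -1.84 and -1.68 at 0 min to 0.75 and 0.82 at 120 min, and Dusp1 from -0.55 at 15 min to 1.07, while Dusp4, Dusp5, Spry4 and Spred1 stay below 0 and Dusp10 above.

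Within each line, values at different times were set side by side as log2 of FPKM plus 1, for genes listed at both times only. Whether the 3 tables share one normalization is not given in the sources used, so these differences are descriptions with no test. From 0 to 15 min no member was 2-fold lower or higher in either line. Of 6374 genes listed at both times, 0.0157% were 2-fold lower and 0.0628% higher in S51A, and 0.0628% were 2-fold lower and 0% higher in WT. The median log2 change of these genes was 0.02 in S51A and 0.01 in WT. The largest differences among members were those of Dusp5 and Errfi1 in S51A, at -0.56 and -0.39, and that of Spry4 in WT, at 0.32. A lower value than that of Dusp5 was seen in S51A for 0.0941% of the genes.

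By 120 min, 2 of 7 members were at least 2-fold below their 0 min level in S51A, against 9.93% of 4330 genes, and 4 of 7 in WT, against 2.06%. In S51A these were Dusp5, at -1.54, and Dusp10, at -1.19. In WT they were Dusp6, at -2.09, Errfi1, at -1.82, Dusp5, at -1.64, and Spry4, at -1.06. Only 0.0693% of the genes had a lower value in WT than Dusp6. Values for Dusp6 and Errfi1 in S51A were 0.32 and 0.63, so for both genes the WT level differed more between 0 and 120 min than the S51A level. No member was 2-fold higher at 120 min than at 0 min in either line, as were 8.36% of the genes in S51A and 0.439% in WT. Against 15 min, Dusp1 differed by 0.46 in S51A and by -1.08 in WT, and Errfi1 by 1.02 in S51A and by -1.96 in WT.

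**Figure D3:**
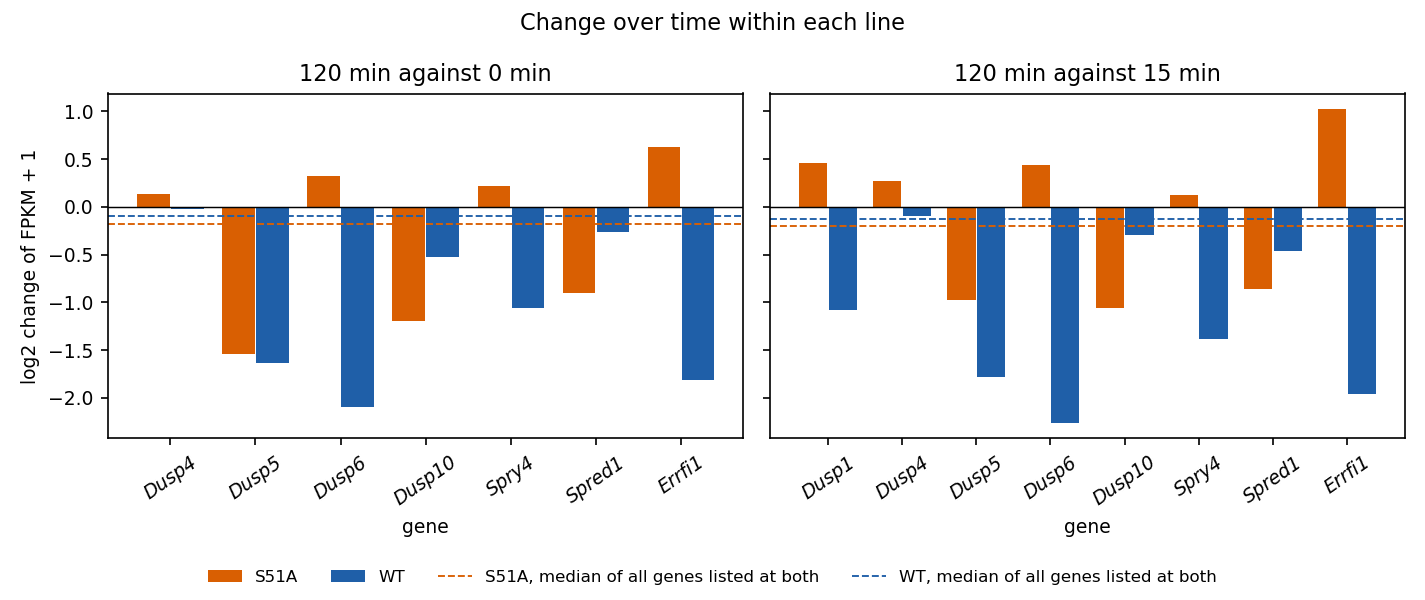
Log2 change of FPKM plus 1 at 120 min against 0 min (left) and against 15 min (right) for members listed at both times, S51A bars left of WT bars; dashed lines are the medians of all genes listed at both times. In WT the bars of Dusp5, Dusp6, Spry4 and Errfi1 reach below -1 in both panels. In S51A the bars of Dusp4, Dusp6, Spry4 and Errfi1 lie above 0 in both panels, as does that of Dusp1 on the right.

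Transcript length moved with the change in S51A. Over 3095 genes with a principal GENCODE transcript, the log2 change from 0 to 120 min went with log2 transcript length at Pearson r = -0.66 in S51A and r = 0.01 in WT, a description across genes that share the same libraries. Spred1, with the longest transcript of the members at 6016 nt, shifted in its log2 ratio by -0.70, and 332 genes within 1.2-fold of its length by a median of -0.52. Dusp6 (2796 nt) and Errfi1 (3036 nt) shifted by 2.59 and 2.50, while genes of like length had medians of -0.01 and -0.05 and 95th percentiles of 1.12 and 1.06. Spry4 (4755 nt) shifted by 3.63, against a median of -0.32 and a 95th percentile of 0.96 over 545 genes. With 1 FPKM added, its shift was 1.28, against a median of -0.28 and a 95th percentile of 0.75 over the same genes. Over the same 3095 genes, the shift of the log2 ratio went with log2 transcript length at r = -0.63. Dusp1, the member with the shortest transcript at 1990 nt, was not listed at 0 min. Its shift from 15 to 120 min was therefore not set beside genes of like length. The part of transcript length in any of these shifts was not tested.

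Neighbours were sought among 3285 genes, those of the 3828 listed in all 3 tables that had at least 5 FPKM in their highest group. The gene nearest to Errfi1 in its course over the 6 groups was Dusp6, with a root mean square difference of 0.20 on the centred log2(FPKM + 1) scale. The median over the 3828 genes was 0.94. Adm, which encodes the peptide hormone adrenomedullin, was the gene nearest to Dusp6, at 0.18. It had 2.97, 2.99 and 4.79 FPKM at 0, 15 and 120 min in S51A cells, and 18.3, 18.6 and 2.69 FPKM in WT cells, thus lower in WT only at the last time. Nearest to Dusp5 was Bdnf, a neurotrophin gene, at 0.23, nearest to Dusp10 was Prkd2, a protein kinase D gene, at 0.07, and nearest to Spred1 was Xpo5, a nuclear export receptor gene, at 0.03. Dusp4 was nearest to Aig1, at 0.09, and Spry4 to Ppan, a ribosome assembly gene, at 0.18. Dusp10 was farther from every other member listed in all 3 tables than the median gene was. Its differences from them lay between 1.14 and 2.08, against a median of 0.99.

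The stretch of 250 bases before the transcription start was read for the 7 listed members with a promoter in the RefSeq table (build GRCm38.p6). Searched on both strands were the cAMP and ATF response element TGACGTCA, the AP-1 site TGANTCA and the ETS word CCGGAA. Also searched were the C/EBP-ATF word TGATGNAA, the TATA word TATAAA and the serum response element (CArG box). Shown are the 3 members whose direction changed, and Dusp5 as a member that stayed lower, 5′ to 3′ on the gene's strand, with matches in capitals.
Dusp1, chr17:26508473-26508722, minus strand: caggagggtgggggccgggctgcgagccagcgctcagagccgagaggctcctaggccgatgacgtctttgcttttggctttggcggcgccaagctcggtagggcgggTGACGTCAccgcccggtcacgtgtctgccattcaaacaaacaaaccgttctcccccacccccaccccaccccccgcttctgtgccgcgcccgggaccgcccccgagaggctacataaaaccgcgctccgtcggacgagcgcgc
Dusp6, chr10:99262981-99263230, plus strand: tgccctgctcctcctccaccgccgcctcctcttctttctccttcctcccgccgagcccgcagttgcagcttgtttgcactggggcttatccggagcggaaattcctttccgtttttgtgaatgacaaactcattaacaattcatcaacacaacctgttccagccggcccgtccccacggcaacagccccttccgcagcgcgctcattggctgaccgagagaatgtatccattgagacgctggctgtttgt
Errfi1, chr4:150854820-150855069, plus strand: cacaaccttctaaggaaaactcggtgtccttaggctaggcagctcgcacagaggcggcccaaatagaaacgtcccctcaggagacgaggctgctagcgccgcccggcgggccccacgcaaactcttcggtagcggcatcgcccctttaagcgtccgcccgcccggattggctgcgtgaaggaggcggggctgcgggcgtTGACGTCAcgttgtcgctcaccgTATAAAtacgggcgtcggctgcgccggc
Dusp5, chr19:53528895-53529144, plus strand: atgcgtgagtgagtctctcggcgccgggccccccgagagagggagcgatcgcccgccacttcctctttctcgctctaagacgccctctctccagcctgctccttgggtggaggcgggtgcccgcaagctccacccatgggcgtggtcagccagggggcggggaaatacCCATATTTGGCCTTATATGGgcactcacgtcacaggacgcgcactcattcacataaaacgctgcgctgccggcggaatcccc

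Dusp1 and Errfi1 each held 1 TGACGTCA, which ended 136 and 44 bases before the start, and 1.55% of 32851 promoters hold it. Errfi1 also held TATAAA, as do 12.4% of promoters. Dusp5 held a pair of adjacent CArG boxes, CCATATTTGG and CCTTATATGG, a motif found in 1.47% of promoters. None of the 7 held the AP-1, ETS or C/EBP-ATF words as spelled above, which occur in 6.75%, 12% and 3.45% of promoters. Other spellings of these sites were not searched, so such sites may be present. Dusp6, Dusp10, Spry2 and Spred1 held no match at all, and of these Spred1 stayed lower at all 3 times, like Dusp5. The start used for Dusp5 lies 173 bases from the gene start in the deposited tables, and that for Errfi1 21 bases. A match describes letters in this window and shows no binding.

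Many transcripts of early response genes are short-lived and carry AU-rich words in their 3′ untranslated region. The 7-base word TATTTAT occurred there in 6 of the 10 members, against 29.3% of 7226 listed genes with a principal transcript in GENCODE M21. The holders were Dusp1, Spry1, Spry2, Spry4, Spred1 and Errfi1, and the untranslated regions had a median length of 1112 nt in members and 1026 nt in all listed genes. Dusp1, with 3 copies in 690 nt, had the highest density of the shorter word ATTTA among members, 5.80 per kb, against a median of 1.32 per kb over listed genes. Dusp6, whose WT level was 4.27-fold lower at 120 min than at 0 min on the FPKM plus 1 scale, had no TATTTAT and 1 ATTTA in 1189 nt. The first TATTTAT is shown in capitals for the 2 direction-changing members that hold it (GRCm38). In Dusp1 it begins at base 104 of the 690 nt region. In Errfi1 the only copy begins at base 1370 of 1390 nt, close to the transcript end.
Dusp1, chr17:26506162-26506184, minus strand: ctggtcctTATTTATttaacacc
Errfi1, chr4:150868864-150868886, plus strand: atattactTATTTATgacaccgt

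The other MAP kinase phosphatase genes differed in both directions. Of 5 further genes, 3 were lower and 1 higher in S51A at 0 and at 15 min, and 2 were lower and 1 higher at 120 min, beside 50.4%, 50.1% and 49.1% lower among all listed genes at the 3 times. Only 3 or 4 of these genes were listed at a time, too few to set apart from those shares. Dusp9, an ERK phosphatase gene, had 6.36, 6.36 and 6.68 FPKM at 0, 15 and 120 min in S51A cells, and 30.1, 32.0 and 26.4 FPKM in WT cells. Dusp7, another ERK phosphatase gene, had 13.7, 14.4 and 3.48 FPKM in S51A, and 24.3, 27.9 and 10.3 FPKM in WT. Dusp8, a phosphatase gene of JNK and p38, was listed only at 120 min, at 13.6 FPKM in S51A and 5.70 FPKM in WT. Dusp16, also a gene for a phosphatase of JNK and p38, was listed at 0 and 15 min, at 13.5 and 12.7 FPKM in S51A cells, and 8.06 and 8.94 FPKM in WT cells. With Dusp10 these were the listed phosphatase genes that were higher in S51A at each time they were listed, a grouping made after the values were seen.

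Of 10 further receptor feedback genes, 4 were lower and 4 higher in S51A at 0 min, 6 and 3 at 15 min, and 5 and 2 at 120 min, beside 50.4%, 50.1% and 49.1% lower among all listed genes. With a minimum fold of 2 these became 0 lower and 2 higher at 0 min, 1 and 2 at 15 min, and 5 and 1 at 120 min. Of all listed genes, 15%, 12.3% and 20.9% were at least 2-fold lower at the 3 times, and 22.1%, 20.2% and 26.5% higher. Spred2, a Spred1 relative, had 7.41, 6.15 and 2.22 FPKM at 0, 15 and 120 min in S51A cells, and 12.8, 18.1 and 9.85 FPKM in WT cells. Il17rd, which encodes the FGF signalling inhibitor SEF, was higher in S51A, with 3.51 FPKM in S51A and 0.279 FPKM in WT at 0 min.

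Upstream of the feedback genes, more ligand genes were called lower than higher in S51A before peroxide, and receptors were mixed. Of 16 growth factor genes, 8 were lower and 3 higher at 0 and at 15 min, and 5 were lower and 4 higher at 120 min, beside 50.4%, 50.1% and 49.1% lower among all listed genes. At 0 min the EGF family ligand genes Ereg and Areg had 0.973 and 0.270 FPKM in S51A, and 11.6 and 2.93 FPKM in WT. Egfr, the receptor that ERRFI1 inhibits, was higher in S51A, at 16.0, 14.5 and 6.11 FPKM at 0, 15 and 120 min, against 1.26, 1.41 and 1.25 FPKM in WT. Errfi1 and its target thus differed in opposite directions at 0 and 15 min and in the same direction at 120 min. Of 14 receptor genes, 3 were lower and 5 higher in S51A at 0 min, 4 and 5 at 15 min, and 3 and 2 at 120 min. A minimum fold of 2 left 2 and 2, 3 and 1, and 3 and 1. Beside these counts, 15%, 12.3% and 20.9% of all listed genes were at least 2-fold lower, and 22.1%, 20.2% and 26.5% higher. Among the receptor genes was Met, the receptor of Hgf, at 11.9 FPKM in S51A and 28.4 FPKM in WT at 0 min.

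Hbegf, the one ligand gene that changed direction as Errfi1 did, had 6.63, 7.78 and 29.7 FPKM at 0, 15 and 120 min in S51A cells, and 34.3, 37.5 and 21.3 FPKM in WT cells. It was named after its values were seen, and its q at 120 min was 0.022 in the authors' deposited table.

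For the kinases and their adaptors the directions were mixed. The counts below stand beside 50.4%, 50.1% and 49.1% lower among all listed genes at 0, 15 and 120 min. At least 2-fold lower were 15%, 12.3% and 20.9% of all listed genes, and at least 2-fold higher 22.1%, 20.2% and 26.5%. Of 21 Ras-ERK core genes, 3 were lower and 6 higher in S51A at 0 min, 7 and 4 at 15 min, and 6 and 3 at 120 min, and every ratio lay within 3.12-fold. With a minimum fold of 2 there were 1 lower and 3 higher at 0 min, 0 and 2 at 15 min, and 1 and 0 at 120 min. At 0 min Gab1, an adaptor gene, had 10.9 FPKM in S51A and 3.53 FPKM in WT, and Hras had 20.1 FPKM in S51A and 49.5 FPKM in WT. Of 17 p38 and JNK pathway genes, 4 were lower and 6 higher at 0 min, 4 and 3 at 15 min, and 4 and 3 at 120 min, of which a minimum fold of 2 left 0 lower and 1 higher at 0 min, 0 and 1 at 15 min, and 1 and 0 at 120 min. Map3k5, which encodes the oxidant-sensing kinase ASK1, had 1.2 FPKM in S51A and 0.319 FPKM in WT at 0 min.

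Downstream, more ERK response genes were called lower than higher in S51A before peroxide. Of 19 such genes, 11 were lower and 4 higher in S51A at 0 min, 13 and 3 at 15 min, and 7 and 9 at 120 min, beside 50.4%, 50.1% and 49.1% lower among all listed genes. The median log2 ratio of the listed ones was -1.60, -1.20 and 0.78, beside -0.27, -0.20 and 0.41 for all listed genes. Etv4, an ETS factor gene induced by ERK, had 2.19, 2.66 and 4.14 FPKM at 0, 15 and 120 min in S51A cells, and 48.8, 42.5 and 39.7 FPKM in WT cells, so it stayed lower throughout like Dusp4. The 4 genes higher in S51A at 0 min were Egr1, Egr2, Fos and Junb, also named after their values were seen. Fos had 14.8 FPKM in S51A and 1.48 FPKM in WT at 0 min. Egr2, an early response factor gene, was higher in S51A at each time. It had 3.92, 1.59 and 9 FPKM at 0, 15 and 120 min in S51A cells, and 0.702, 0.940 and 0.611 FPKM in WT cells. Of the 14 ERK response genes listed at 0 and 120 min, 4 were lower at 0 min and higher at 120 min. Among all 4330 genes listed at both, 10.4% did so. The 4 ERK response genes that did so were Jun, Ier3, Myc and Phlda1, named after their values were seen.

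**Figure D4:**
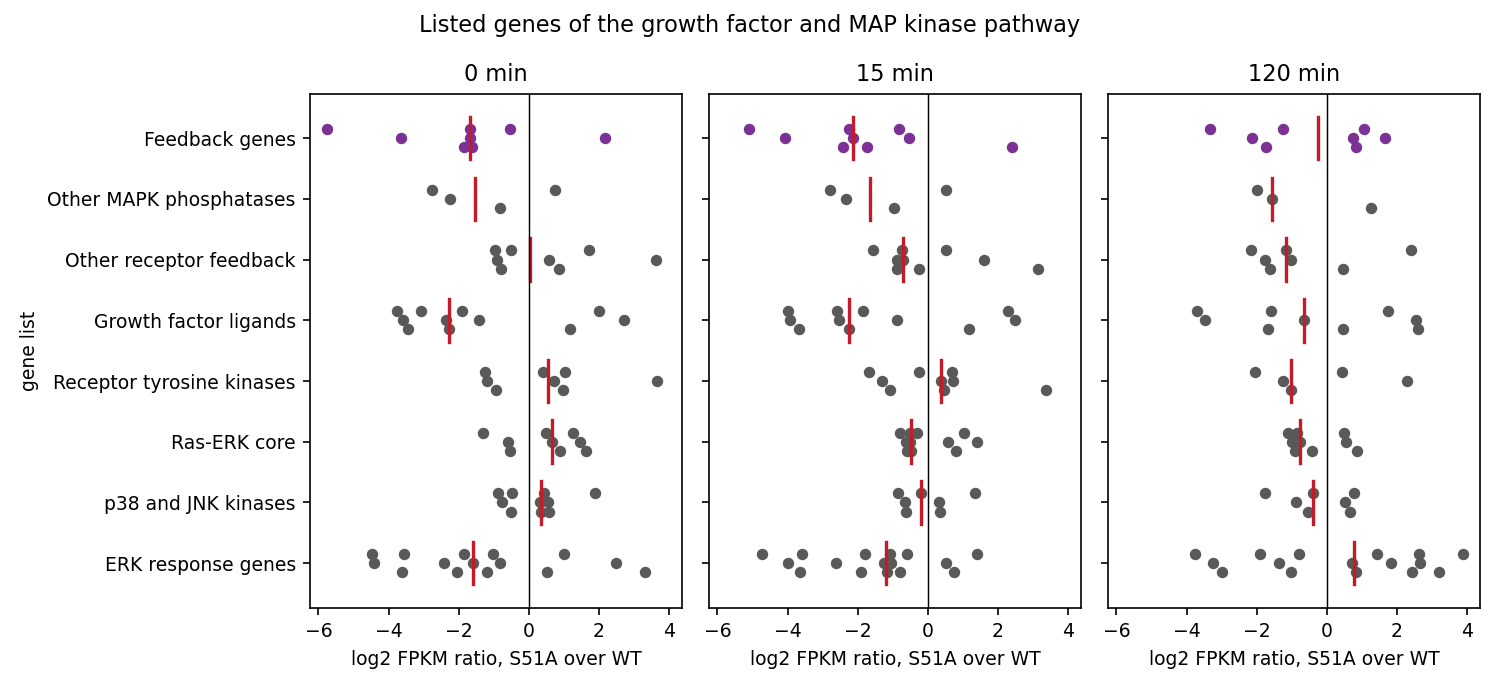
Deposited log2 FPKM ratio of S51A over WT at 0, 15 and 120 min for listed genes of the feedback set and of 7 pathway lists, 1 point per gene, with a red bar at the median of the listed genes. The median of the feedback genes is -1.69, -2.14 and -0.25, and that of the ERK response genes is -1.60, -1.20 and 0.78.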

How the data were processed

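Per the labels' protocols, directional poly(A) libraries of 18 samples gave single-end 75 nt reads. STAR, Cufflinks, Cuffdiff and mm10 are named in the submitters' processing notes, without version or role, and no annotation is named. The authors' 3 tables hold a log2 FPKM for either line, the log2 ratio and a q-value, per the file headers. A deposited log2 of -10 stands for 0, which no member had. Every deposited q-value is at most 0.05. Depth is unknown.

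Folds are ratios of the authors' group FPKM, and a listed gene counts as called. The planned count test could not be run on group values. Changes over time used a pseudocount of 1. Members and gene lists were chosen with earlier results of these data known. Named genes were all members, up to 3 genes per list and time by size of the ratio with at least 1 FPKM in the higher line, and the 2 genes nearest to each member with at least 5 FPKM; most are given as counts only. Gene starts are the deposited ones plus 1, after which 47.8% of matched genes at 0 min start as in RefSeq. The code used Python 3.11.15, pandas 2.3.3 and numpy 2.4.6. Only its functions for the log2 change and for the root mean square difference were tested on simulated data. Alternatives were a minimum fold of 2, q of at most 0.001, FPKM minimums of 1 and 5, pseudocounts of 1 and 0.1, centring on the median and a fold of 1.5. Promoters are RefSeq's and transcripts GENCODE's, both on GRCm38, the same build as mm10.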

Additional observations from a re-analysis of the deposited data

Results flagged for a closer look

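In 3 members the sign of the difference between the lines changed with time, each side called by the authors. From 0 to 120 min the deposited log2 ratio of S51A over WT changed by 2.59 for Dusp6 and by 2.50 for Errfi1. From 15 to 120 min it changed by 2.89 for Dusp6, by 3.06 for Errfi1 and by 1.62 for Dusp1. The difference between times was not tested, since the tables hold no values of single samples.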

How the results depend on the processing

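No paired analysis was possible because the tables hold 1 value per group, and for the same reason no sample could be left out. With a minimum fold of 2, members higher in S51A at 120 min numbered 2 in place of 4, and 1 when the ratio also had a pseudocount of 1. Over the 7 pathway lists that minimum left 23 of 36 lower and 14 of 29 higher genes at 0 min, 24 of 45 and 10 of 22 at 15 min, and 13 of 24 higher genes at 120 min. From 0 to 120 min in S51A, 1 member was higher with a pseudocount of 0.1 or with a fold of 1.5, in place of 0. The other 77 recomputed values of the members' counts and of the sums over lists stayed within 1.5 times. Of the counts of single lists, the minimum fold of 2 moved 22 by more than that and left 20 within it; the receptor feedback, Ras-ERK and p38 and JNK lists lost most or all of their lower calls at 0 and 15 min. No single member's ratio changed sign with a pseudocount of 1 or when centred on the median of listed genes with at least 1 FPKM in the higher line (log2 -0.28, -0.21 and 0.41 at 0, 15 and 120 min), the centring being chosen after seeing the data. With that pseudocount, also applied to the shift after seeing the data, the shift of Spry4 from 0 to 120 min was 1.28 in place of 3.63, and that of Dusp5 was 0.10 in place of -0.10. That median falls beside the gap left by uncalled genes and measures no shift of all genes.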
